A study of Mus musculus with 6 samples.

Results

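A total of 113 circRNAs of 83 host genes of the ubiquitin pathway were examined, of 14236 circRNA probes on the array and 3056 probes (21.5%) with a named host gene. A circRNA is a closed RNA ring, in most cases formed by back-splicing of a downstream exon end to an upstream one. Its host is the gene that the annotation names for it. By annotated class, the set held 93 exonic, 13 sense overlapping, 5 intronic and 2 antisense rings. The circRNAs were chosen by the symbol of the host, from the families of ubiquitin-conjugating enzymes (Ube), ligases (Herc, Hect, Hecw, Huwe1, Nedd4, Itch, Ubr, Trim, Rnf, March, Mib, Mycbp2, Birc6, Smurf, Wwp), cullins (Cul) and their F-box and Kelch adaptors (Fbxo, Fbxl, Fbxw, Klhl, Kbtbd), deubiquitinases (Usp, Otud), Ubap proteins and proteasome subunits (Psm). No Smurf, Wwp or Otud gene had a listed circRNA. A host had to be named either in one of the deposited tables of circRNAs that were higher or lower in HuD KO, or in the study's list of circRNAs bound by HuD. The higher table gave 51 of the circRNAs, from 37 hosts, and the lower table gave 39, from 38 hosts. The HuD-bound list gave 25 (20 hosts), of which 23 were in neither table. Over all hosts, the tables held 1140 higher and 1348 lower circRNAs (45.8% and 54.2%), and the HuD-bound list 658 of the 3056 named ones (21.5%).

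The arrays measured RNA from the striatum of adult male C57BL6 mice, 3 HuD KO (Elavl4-/-) animals and 3 WT littermates, with 1 array per mouse. HuD, the product of Elavl4, is a neuronal RNA-binding protein that binds AU-rich and U-rich RNA. The total RNA had been digested with RNase R, which removes linear RNA, so the signal is meant to stand for circular RNA. Whether mRNA of the host was left was not checked on these arrays. The HuD-bound list came from other mice, which carried myc-tagged HuD under the Camk2a promoter, by precipitation of the tag from pooled striata. The deletion is not limited to a cell type, and the labels name no other allele and no treatment for either group. None of the 3056 circRNAs with a named host was of Elavl4 itself. The hosts of the other probes were not named in the lists used, so the deletion was not checked on these arrays. In whole striatum, fewer cells of a type and less RNA per cell cannot be told apart.

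Ubiquitin is a small protein that is attached to other proteins in a cascade. An E1 enzyme activates it, an E2 carries it, and an E3 ligase picks the substrate, either through a HECT domain that takes over the ubiquitin or through a RING domain that brings the E2 and the substrate together. Cullins are scaffolds of multi-subunit RING ligases, with F-box or BTB-Kelch proteins as substrate receptors, deubiquitinases remove the tag, and the proteasome degrades proteins that carry chains of it. In neurons the pathway is known for its part in synapse growth and in the turnover of synaptic proteins, and loss of the HECT ligase Ube3a from the maternal allele causes Angelman syndrome.

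Each probe is annotated to 1 back-splice, and a sequence of 60 bases is given for it. Positions are given as deposited, without a stated build, and all 93 exonic circRNAs of the set lay inside the GRCm38 span of their host. The 4 circRNAs of Trim37 are shown first because one of them was low in HuD KO while the other 3 were high. They lay on the plus strand at chr11:87137589-87167516, chr11:87143126-87190159, chr11:87145463-87209887 and chr11:87159820-87178028. Capitals mark ATTTA, the core of an AU-rich element, found by a search of the strand as written.
mmu_circRNA_24010 (Trim37): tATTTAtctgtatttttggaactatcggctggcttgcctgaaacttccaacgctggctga
mmu_circRNA_24012 (Trim37): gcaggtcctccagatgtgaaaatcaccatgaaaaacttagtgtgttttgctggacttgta
mmu_circRNA_24020 (Trim37): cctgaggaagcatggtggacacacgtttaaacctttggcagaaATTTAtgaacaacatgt
mmu_circRNA_014957 (Trim37): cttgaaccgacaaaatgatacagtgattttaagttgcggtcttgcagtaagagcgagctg
Of the 4 circRNAs of Ube2e2, which were all on the HuD-bound list, 3 are shown in the same way because their changes differed in size. They lay on the minus strand at chr14:18574175-18586998, chr14:18627861-18630431 and chr14:18630298-18639087.
mmu_circRNA_27137 (Ube2e2): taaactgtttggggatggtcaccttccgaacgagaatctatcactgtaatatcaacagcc
mmu_circRNA_27143 (Ube2e2): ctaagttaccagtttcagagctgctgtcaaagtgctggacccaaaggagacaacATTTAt
mmu_circRNA_27145 (Ube2e2): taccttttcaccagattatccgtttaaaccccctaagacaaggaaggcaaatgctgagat

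ATTTA occurred in 9 of the 113 sequences (7.96%), against 127 of the 3056 named circRNAs (4.16%). On the reverse strand it occurred in 2 of the set (1.77%) and in 3.50% of all named circRNAs. Among the 25 HuD-bound circRNAs of the set, the sequences with ATTTA were those of mmu_circRNA_24020 of Trim37, mmu_circRNA_27143 of Ube2e2 and mmu_circRNA_21005 of Rnf2. TTTTT occurred in 7 sequences (6.19%) of the set and in 5.14% of all. It was found in 0 of the 25 HuD-bound ones, beside 3.50% of the whole HuD-bound list. On the reverse strand TTTTT was found in 14 of the set (12.4%) and in 9.36% of all. For the 25 HuD-bound ones the reverse strand gave 6 (24.0%), beside 8.51% of the whole HuD-bound list. These counts cover only those 60 bases, and the rest of each ring was not searched.

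Some circRNAs of one host share bases in these sequences, since 4 pairs of circRNAs in the set had the same start or the same end, and a further pair had nearly the same ends. In each of these 5 pairs a run of at least 12 bases was common to both sequences. The circRNAs of Ube2k, on the plus strand of chromosome 5, show this most plainly. mmu_circRNA_002457 (chr5:65565988-65594548) had the start of mmu_circRNA_38685 (chr5:65565988-65581468) and the end of mmu_circRNA_38686 (chr5:65571531-65594548). The run shared with the first was 15 bases long and that with the second 44 bases, and both are in capitals.
mmu_circRNA_002457 (Ube2k): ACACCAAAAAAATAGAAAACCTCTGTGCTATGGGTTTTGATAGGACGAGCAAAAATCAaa
mmu_circRNA_38685 (Ube2k): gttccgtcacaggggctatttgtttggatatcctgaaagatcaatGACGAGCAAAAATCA
mmu_circRNA_38686 (Ube2k): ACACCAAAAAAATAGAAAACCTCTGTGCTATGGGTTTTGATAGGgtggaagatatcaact
A run of 30 bases was shared by the Usp15 circRNAs mmu_circRNA_18994 (chr10:123146790-123181802) and mmu_circRNA_004360 (chr10:123146793-123181800), on the minus strand, whose ends differ by 3 and 2 bases, and these sequences also share bases after it.
mmu_circRNA_18994 (Usp15): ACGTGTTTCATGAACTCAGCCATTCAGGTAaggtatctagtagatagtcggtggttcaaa
mmu_circRNA_004360 (Usp15): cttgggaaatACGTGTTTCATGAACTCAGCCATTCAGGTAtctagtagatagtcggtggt
The pairs of Fbxl5 (mmu_circRNA_38546 and mmu_circRNA_011555) and Rnf169 (mmu_circRNA_41987 and mmu_circRNA_41986) shared 23 and 22 bases. How far such a run lets one ring add to the signal of another probe was not tested.

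On the arrays, between 84.0% and 96.7% of all circRNA probes were well above background, and HuD KO replicate 1 had the smallest share. All 113 probes of the set passed the filter on dim probes, and 108 exceeded background clearly on each of the 6 arrays. The other 5, of Cul2, Fbxl13, Fbxw24, Kbtbd2 and Trim12a, were well above background on 2 of the 3 HuD KO arrays. Values are log2 signals after subtraction of the 75th percentile over the circRNA probes of an array, so that 0 is the level that marks the brighter end of the circRNA probes, and a change is the mean of HuD KO minus the mean of WT. The 3 WT arrays were read in 1 scan and the HuD KO arrays in 2 others, so that scan and genotype cannot be told apart. HuD KO replicate 3 was alone in its scan and had 95 flagged circRNA spots, the most of the 6 arrays. Where it differs from the other HuD KO replicates, mouse and scan cannot be told apart. Over all 13431 probes tested, 63.3% were called at an adjusted p under 0.05 (limma), 26.1% higher and 37.2% lower in HuD KO, and the median change was -0.11. In 70.2% of all probes tested the HuD KO and WT arrays did not overlap, so a lack of overlap was common.

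Of the 25 HuD-bound circRNAs, 9 (36.0%) rose and 3 (12%) fell in HuD KO, beside 26.1% and 37.2% of all probes tested, and 13 were not called. Those 9 came from the E2 genes Ube2e2 and Ube2k, the HECT ligase gene Hecw1 and the RING ligase genes Trim37, Mib1, Ubr3 and Rnf169. The 3 that fell came from Trim37, from Ube2j1, an E2 of the endoplasmic reticulum membrane, and from Psmd7, a lid subunit of the proteasome. Scaling the arrays on the circRNA control probes instead, which moved the median over all probes to -0.90, left 0 of the 25 higher and 14 lower. HuD-bound circRNAs of other hosts gave 42.7% higher and 14.1% lower of 632 tested. The median change was 0.16 for the 25 and 0.37 for those of other hosts. The excess of the 25 over all probes, 0.27, was 0.056 after quantile normalization. All 25 were well above background on all 6 arrays. With only such probes tested, 3530 of 11807 were higher and 3710 lower, and the excess was 0.14. Signals of the HuD-bound circRNAs were bright, with 12 of the 25 in the brightest of 4 equal groups of probes by WT signal and 0 in the dimmest, and in that brightest group 35.6% of all probes were higher and 31.3% lower.

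**Figure D1:**
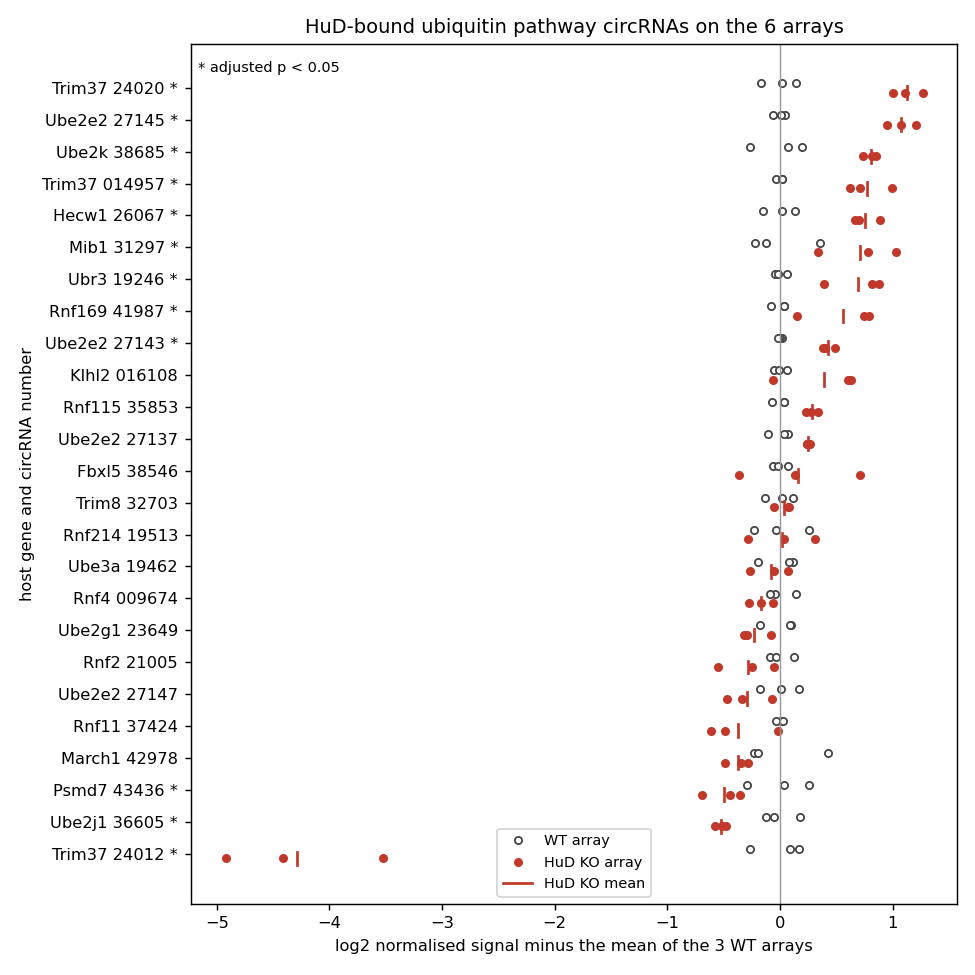
Log2 normalised signal of the 25 HuD-bound circRNAs on each of the 3 HuD KO arrays (filled points, with their mean as a bar) and the 3 WT arrays (open points), relative to the WT mean of the circRNA. The HuD KO points of mmu_circRNA_24012 of Trim37 lie far to the left of all others, and a star marks the 12 circRNAs with an adjusted p under 0.05.

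Among the E2 genes, Ube2e2 gave 4 HuD-bound circRNAs. The log2 signal of mmu_circRNA_27145 was 3.34, 3.21 and 3.09 on the HuD KO arrays and 2.19, 2.08 and 2.15 on the WT arrays. Its change was 1.08 (SE 0.14, limma adjusted p = 0.000349), a 2.11-fold higher level in HuD KO with no overlap between the groups. The intronic mmu_circRNA_27143, which partly overlaps it, measured 0.68, 0.78 and 0.69 on the HuD KO arrays and 0.31, 0.29 and 0.27 on the WT arrays, a change of 0.42 (adjusted p = 0.0188). The 3′-most of the 4, mmu_circRNA_27137, measured -0.24, -0.24 and -0.21 on the HuD KO arrays and -0.41, -0.44 and -0.58 on the WT arrays. These groups did not overlap either, but the change of 0.25 was not called (adjusted p = 0.129). The exonic and 5′-most mmu_circRNA_27147 measured -2.27, -2.13 and -1.86 on the HuD KO arrays and -1.62, -1.79 and -1.97 on the WT arrays, with overlapping groups and a change of -0.29 (adjusted p = 0.157). Within arrays, the change of mmu_circRNA_27145 exceeded that of mmu_circRNA_27147 by 1.37, with every HuD KO array above every WT array. The exact permutation test (two-sided) gave p = 0.1, which is the smallest that 3 against 3 arrays allow, and the adjusted value over the 9 pairs of Trim37 and Ube2e2 was 0.113.

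Ube2k, an E2 that builds chains that mark proteins for the proteasome, gave 3 circRNAs, all higher in HuD KO. The HuD-bound mmu_circRNA_38685 measured 1.73, 1.61 and 1.69 on the HuD KO arrays and 0.94, 0.61 and 1.07 on the WT arrays, a change of 0.80 (adjusted p = 0.00302). The ring that spans both others, mmu_circRNA_002457, measured 2.16, 2.07 and 1.38 on the HuD KO arrays and 0.05, -0.12 and 0.47 on the WT arrays, a 3.33-fold difference, and mmu_circRNA_38686 had a change of 1.31. These last circRNAs are in the higher table, which was made from these arrays, so their changes are given without a test. Ube2j1 gave mmu_circRNA_36605, at -2.75, -2.65 and -2.68 on the HuD KO arrays and -2.30, -2.23 and -1.99 on the WT arrays. Its groups did not overlap and it fell by 0.52 on the log2 scale (adjusted p = 0.013). The circRNA of Ube2g1, an E2 that works with cullin ligases, had overlapping groups and a change of -0.23 (adjusted p = 0.207). In the tables, the E2 genes added mmu_circRNA_22200 of Ube2d1, an E2 that serves many ligases, with a change of -1.92.

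Among HECT ligase genes, 15 of 20 circRNAs were in the higher table, 3 in the lower table and 2 on the HuD-bound list alone, while the whole tables held 45.8% higher ones. HuD-bound mmu_circRNA_26067 of Hecw1, a Nedd4-family ligase gene, spanned 74.9 kb and measured -0.41, -0.22 and -0.45 on the HuD KO arrays and -0.98, -1.09 and -1.27 on the WT arrays. It rose by 0.76 (adjusted p = 0.00268), and the groups did not overlap. Ube3a gave the HuD-bound mmu_circRNA_19462, at -0.23, 0.10 and -0.02 on the HuD KO arrays and 0.15, -0.16 and 0.12 on the WT arrays. Here the groups overlapped, and the change was -0.08 (SE 0.16, adjusted p = 0.668). Beside these, both circRNAs of Herc6, which in mouse attaches the ubiquitin-like protein ISG15, were in the higher table. Of these, mmu_circRNA_40315 measured -0.25, -0.28 and -0.33 on the HuD KO arrays and -2.82, -2.82 and -3.01 on the WT arrays, a change of 2.60 or 6.05-fold (1.24 to 3.11 on the log2 scale over the alternatives), and mmu_circRNA_40316, inside its span, had a change of 1.86. Ube3c, which extends chains on proteasome substrates, gave 3 circRNAs with changes of 1.05, 1.38 and 1.91. Both listed circRNAs of the giant ligase gene Herc1 (1.38 and 1.44), both of Herc3 (0.998 and 1.16) and both of Nedd4l (1.47 and 1.48) were in the higher table too. Single circRNAs of Huwe1 (1.16), Hectd2 (1.25) and Hecw2 (1.49) and 1 of 2 circRNAs of Herc4 (1.09) were also in the higher table. The lower table held circRNAs of Itch, at -2.37, and of Nedd4, at -1.95, which are both Nedd4-family ligase genes, and 1 of 2 circRNAs of Herc4.

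The RING ligase genes formed the largest group, with 37 circRNAs of 27 hosts. Of these, 14 were in the higher table and 12 in the lower, beside 45.8% and 54.2% over the whole tables. Trim37, a peroxisomal and centriolar RING ligase, had circRNAs in both directions. HuD-bound mmu_circRNA_24012 measured -0.55, -0.04 and 0.85 on the HuD KO arrays and 4.55, 4.46 and 4.11 on the WT arrays. All WT values lay far above all HuD KO values, and the level was 19.5-fold lower in HuD KO (change -4.28, SE 0.33, adjusted p = 5.6e-05). HuD-bound mmu_circRNA_24020, whose span contains most of the first, measured 2.08, 2.34 and 2.18 on the HuD KO arrays and 1.09, 0.91 and 1.22 on the WT arrays, a change of 1.13 (adjusted p = 0.000439). The third HuD-bound circRNA of the gene, mmu_circRNA_014957, lies inside both spans and measured 1.30, 1.39 and 1.68 on the HuD KO arrays and 0.70, 0.65 and 0.70 on the WT arrays, a change of 0.77 (adjusted p = 0.00259). The one not on the HuD-bound list, mmu_circRNA_24010, had a change of 1.11. Within arrays, the changes of mmu_circRNA_24020 and mmu_circRNA_014957 exceeded that of mmu_circRNA_24012 by 5.41 and 5.06, both at the smallest exact permutation p of 0.1 (two-sided, adjusted 0.113). The 2 higher ones differed from each other by 0.35, with overlapping groups (exact permutation p = 0.2, adjusted 0.2). As mmu_circRNA_24012 and mmu_circRNA_24020 are also in the tables made from these arrays, their p-values are not independent of that choice.

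The other HuD-bound circRNAs of RING ligase genes had smaller changes. Ubr3, of the family that recognises protein N-termini, gave mmu_circRNA_19246, at 4.43, 4.36 and 3.94 on the HuD KO arrays and 3.51, 3.54 and 3.61 on the WT arrays (change 0.69, adjusted p = 0.00766). Rnf169, a reader of ubiquitinated histone H2A at DNA breaks, gave mmu_circRNA_41987, at 3.64, 3.60 and 3.00 on the HuD KO arrays and 2.90, 2.78 and 2.89 on the WT arrays (change 0.56, adjusted p = 0.0356). In both, the groups did not overlap, and HuD KO replicate 3 was the lowest of its group. Mib1, which ubiquitinates Notch ligands, gave mmu_circRNA_31297, at 0.43, 0.87 and 1.12 on the HuD KO arrays and -0.13, -0.03 and 0.44 on the WT arrays. Its lowest HuD KO value lay just below its highest WT value, at a change of 0.71 (adjusted p = 0.026). Not called were the circRNAs of Rnf115 (0.28), Trim8 (0.03), Rnf214 (0.02), Rnf4, a ligase for SUMO-tagged proteins (-0.17), Rnf2, the catalytic ligase of the Polycomb repressive complex (-0.28), Rnf11 (-0.37) and March1, which turns over MHC class II (-0.38). Of these, the groups of Rnf115 and March1 did not overlap, and their adjusted p was 0.0869 and 0.134.

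In the tables, RING ligase circRNAs ranged widely. The lower table held mmu_circRNA_28348 of March6, a ligase of the endoplasmic reticulum, at -1.13, -0.93 and -0.20 on the HuD KO arrays and 3.79, 4.02 and 3.64 on the WT arrays, which is 23.8-fold lower. An antisense ring of 0.096 kb at Trim21, the cytosolic antibody receptor, mmu_circRNA_19469, was 24.1-fold lower, with -0.99, -0.85 and 1.14 on the HuD KO arrays. HuD KO replicate 3 was well above the other replicates there, and more so in mmu_circRNA_19470 of Trim12a, whose HuD KO values were -4.46, -4.13 and 0.29 against 1.75, 2.25 and 2.30 in WT (change -4.87, SE 1.11, or -6.40 without HuD KO replicate 3, and 1 HuD KO array not well above background). Smaller differences in the lower table included those of Rnf122 (-2.51, and -3.30 to -0.98 over the alternatives), Rnf150 (-2.10), Rnf145 (-1.35), Rnf13 (-1.21), Rnf130 (-0.90) and Rnf157 (-0.86). Of the higher ones, mmu_circRNA_33784 of Ubr3 had a change of 1.74 and mmu_circRNA_33797, farther 3′ in the same gene, one of 1.02. The others in the higher table were 2 circRNAs of Trim37 (1.11 and 1.13) and single ones of Mycbp2 (1.23), Trim24 (1.05), Rnf169 (1.55), Rnf214 (1.53), March7 (1.29), Ubr7 (1.20), Rnf217 (1.13), Mib1 (1.07), Ubr2 (1.02) and Rnf19a (0.91).

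**Figure D2:**
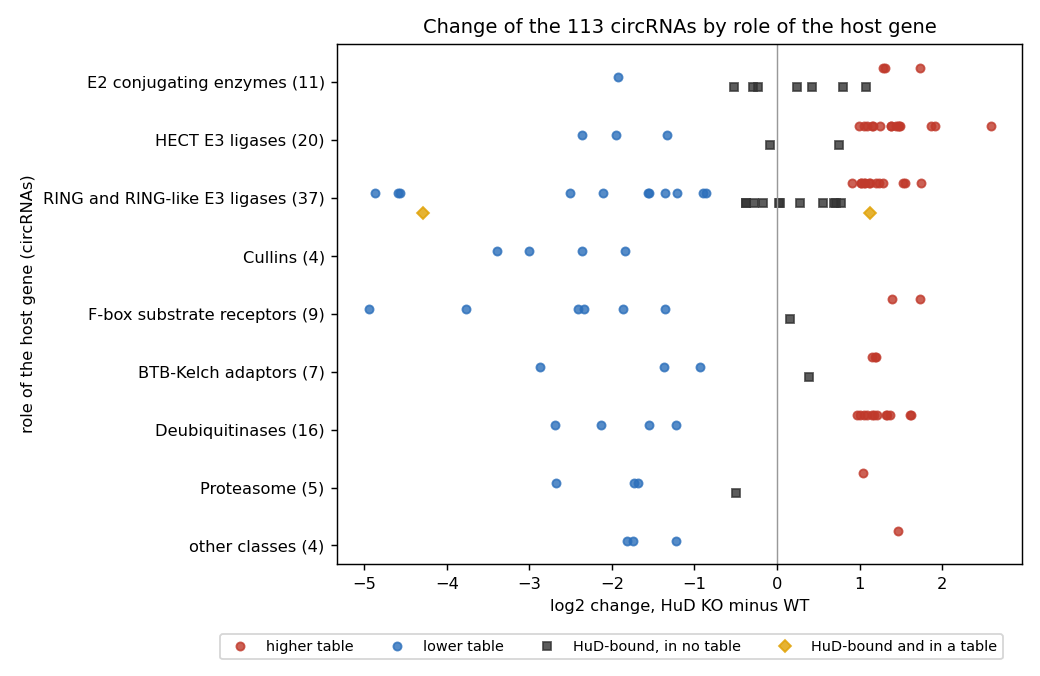
Log2 change (HuD KO minus WT) of each of the 113 circRNAs, one point each, by the role of the host gene, with the number of circRNAs of the class in brackets and the source of the circRNA given by colour and shape. The gap around 0 in the circles comes from the fold-change threshold of the tables. All 4 cullin circRNAs lie to the left, between -3.39 and -1.84. Of the 20 HECT ligase circRNAs, 15 are higher-table circles on the right and 3 are lower-table circles. The whole tables held 1140 higher and 1348 lower circRNAs.

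All 4 cullin circRNAs were in the lower table, where 54.2% of all table circRNAs were. Cul3, the scaffold for BTB adaptors, gave mmu_circRNA_20392, at -3.24, -2.90 and -3.10 on the HuD KO arrays and -0.49, -0.78 and -0.87 on the WT arrays, and mmu_circRNA_20394, at -0.69, -0.68 and -1.28 on the HuD KO arrays and 0.31, 1.23 and 1.32 on the WT arrays. These were 5.16-fold and 3.58-fold lower, and their spans overlap. Over the alternatives their changes were -3.15 to -1.01 and -2.62 to -1.32. The circRNA of Cul9 was 8.05-fold lower, and that of Cul2 had a change of -3.39 (-4.18 to -0.61 over the alternatives) and is among the circRNAs that were dim on 1 HuD KO array. F-box genes gave 2 circRNAs in the higher table and 6 in the lower. Among the lower ones, mmu_circRNA_38212 of Fbxl13 measured -5.62, -3.80 and -3.96 on the HuD KO arrays and 0.53, 0.69 and 0.24 on the WT arrays (change -4.95), with 1 HuD KO array not well above background. This change was -4.37 without HuD KO replicate 1, and -2.28 or -2.10 with the normexp background correction. Others in the lower table included circRNAs of Fbxw24 (-3.77, dim on 1 HuD KO array and -4.55 to -1.10 over the alternatives), Fbxo39 (-2.34), Fbxw4 (-1.87, an antisense ring) and Fbxo34 (-1.36). Fbxl5, the receptor that targets iron-regulatory proteins, gave 3 circRNAs. The HuD-bound mmu_circRNA_38546 measured 0.36, 0.86 and 1.43 on the HuD KO arrays and 0.66, 0.79 and 0.71 on the WT arrays, so that the HuD KO arrays lay on both sides of the WT arrays (change 0.16, adjusted p = 0.604). From the same 5′ end, mmu_circRNA_011555 had a change of 1.39, and the ring of 0.1 kb inside it, mmu_circRNA_007662, one of 1.73.

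The BTB-Kelch genes were split, with both circRNAs of Klhl8 (1.19 and 1.20) and 1 of Klhl24 (1.15) in the higher table, and circRNAs of Kbtbd2 (-2.87, dim on 1 HuD KO array and -3.65 to -0.91 over the alternatives), Klhl32 (-1.36) and Klhl29 (-0.93) in the lower. The HuD-bound mmu_circRNA_016108 of Klhl2, an adaptor for WNK kinases, measured 4.87, 4.84 and 4.18 on the HuD KO arrays and 4.30, 4.18 and 4.23 on the WT arrays. Replicates 1 and 2 of HuD KO lay above all WT arrays and replicate 3 did not, and the change of 0.39 was not called (adjusted p = 0.13).

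Of the 16 deubiquitinase circRNAs, all from the tables, 12 were higher, beside 45.8% over the whole tables. On the HuD-bound list, which held 658 of the 14236 circRNA probes of the array, were 0 of the 16. As circRNAs were named only through the tables or that list, its share of the named ones is no measure for circRNAs from the tables. The circRNAs of Usp15 measured -0.09, 0.10 and -0.73 on the HuD KO arrays and -1.85, -2.08 and -1.65 on the WT arrays for mmu_circRNA_004360 and -0.06, 0.22 and -0.45 on the HuD KO arrays and -1.34, -1.47 and -0.92 on the WT arrays for mmu_circRNA_18994. Both were higher in HuD KO, and they share the bases shown above. Usp45 (1.61 and 1.01) and the X-linked Usp9x (1.37 and 1.21) gave 2 higher circRNAs each. Single ones came from Usp53 (1.33), Usp3, which acts on histones (1.31), Usp47 (1.09), Usp37 (1.05) and Usp12 (0.97), together with 1 of 2 of Usp34. Of those in the lower table, Uspl1, a SUMO isopeptidase, had a change of -2.69 (-3.47 to -0.90 over the alternatives). Usp30, an enzyme of the outer mitochondrial membrane, had one of -2.13, and Usp54 one of -1.55.

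Of 5 proteasome circRNAs, 3 were in the lower table and 1 in the higher, beside 54.2% lower and 45.8% higher over the whole tables. The HuD-bound mmu_circRNA_43436 of Psmd7 measured -1.29, -1.53 and -1.20 on the HuD KO arrays and -0.58, -1.14 and -0.81 on the WT arrays, which do not overlap, at a change of -0.49 (adjusted p = 0.0456). Lower too were circRNAs of Psmf1, a regulator of proteasome activity (-2.68, and -3.46 to -0.72 over the alternatives), Psmd4, a ubiquitin receptor of the proteasome (-1.73), and Psmd8 (-1.69). The higher one came from Psme4, which encodes an activator cap (1.04). Outside these classes, the circRNA of Birc6, a very large protein with both E2 and E3 activity, was in the higher table (1.47), and those of Ube4b, a U-box factor that extends chains (-1.22), Ubap2 (-1.75) and Ubap1l (-1.81) were in the lower.

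Several circRNAs of one host need not move together, and 22 hosts had 2 or more of the circRNAs. In 15 of these hosts all circRNAs had a change above 0, in 1 (Cul3) all were below 0, and 6 had both signs. As most of these circRNAs were picked for a fold change on these arrays, the counts are a description. The hosts with a circRNA in each table were Trim37, Trim24, Herc4, Mycbp2 and Usp34. Of Trim24, a chromatin reader with a RING domain, mmu_circRNA_40141 measured -0.53, -0.48 and -0.48 on the HuD KO arrays and -1.40, -1.82 and -1.43 on the WT arrays, and mmu_circRNA_40145, farther 3′, -1.52, -1.47 and -1.30 on the HuD KO arrays and 0.23, 0.09 and 0.05 on the WT arrays. Of Herc4, mmu_circRNA_22138 lies within the span of mmu_circRNA_22135, and their changes were 1.09 and -1.33. Of Mycbp2, a large ligase known for its part in axon growth, mmu_circRNA_27968 measured 1.85, 1.89 and 1.61 on the HuD KO arrays and 0.56, 0.44 and 0.65 on the WT arrays, and mmu_circRNA_27963, whose span overlaps it, -1.73, -1.32 and -1.18 on the HuD KO arrays and 0.20, 0.22 and 0.06 on the WT arrays. Of Usp34, the changes were 1.18 for mmu_circRNA_23000 and -1.23 for mmu_circRNA_008996, which do not overlap in position. In none of these circRNAs did the HuD KO and WT arrays overlap, as in 70.2% of all probes tested. The tables were also made by fold change and p on these arrays.

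**Figure D3:**
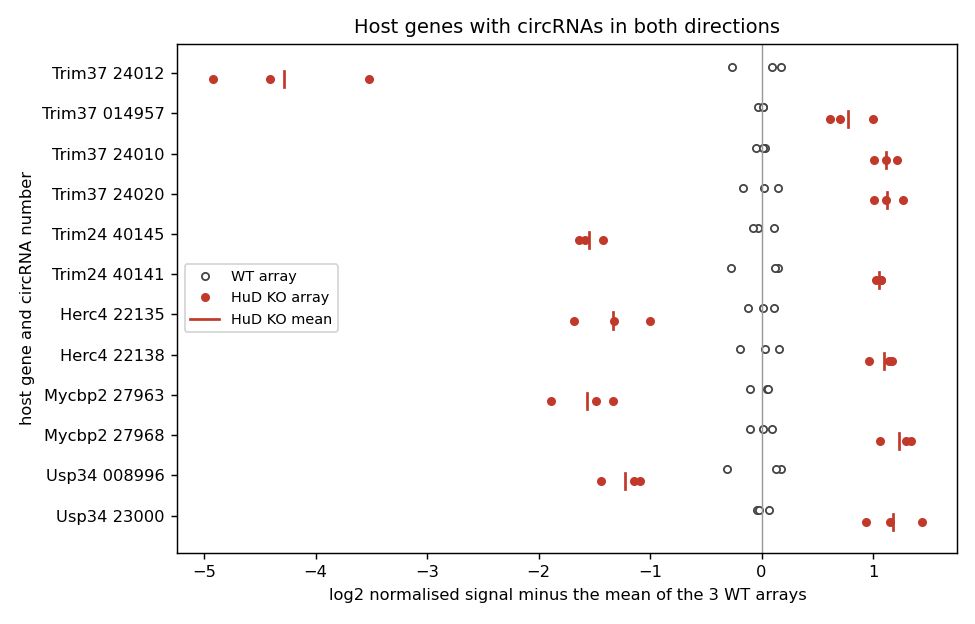
Log2 normalised signal of each circRNA of the 5 hosts with circRNAs in both tables, on the 3 HuD KO arrays (filled points, mean as a bar) and the 3 WT arrays (open points), relative to the WT mean of the circRNA. Every host has HuD KO points on both sides of 0, and those of mmu_circRNA_24012 of Trim37 lie lowest.

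In 7 hosts a HuD-bound circRNA that was in no table stood beside circRNAs from the tables, namely Fbxl5, Mib1, Rnf169, Rnf214, Trim37, Ube2k and Ubr3. In Ube2k, Ubr3, Fbxl5, Rnf169, Rnf214 and Mib1 the HuD-bound circRNA had the smallest change of its host, at 0.80, 0.69, 0.16, 0.56, 0.02 and 0.71. The others were in the tables because of a large change on these arrays, so this order follows from how they were chosen. The map of spans shows that these circRNAs could share a start or an end (Ube2k, Fbxl5, Rnf169) or lie apart (Ubr3).

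**Figure D4:**
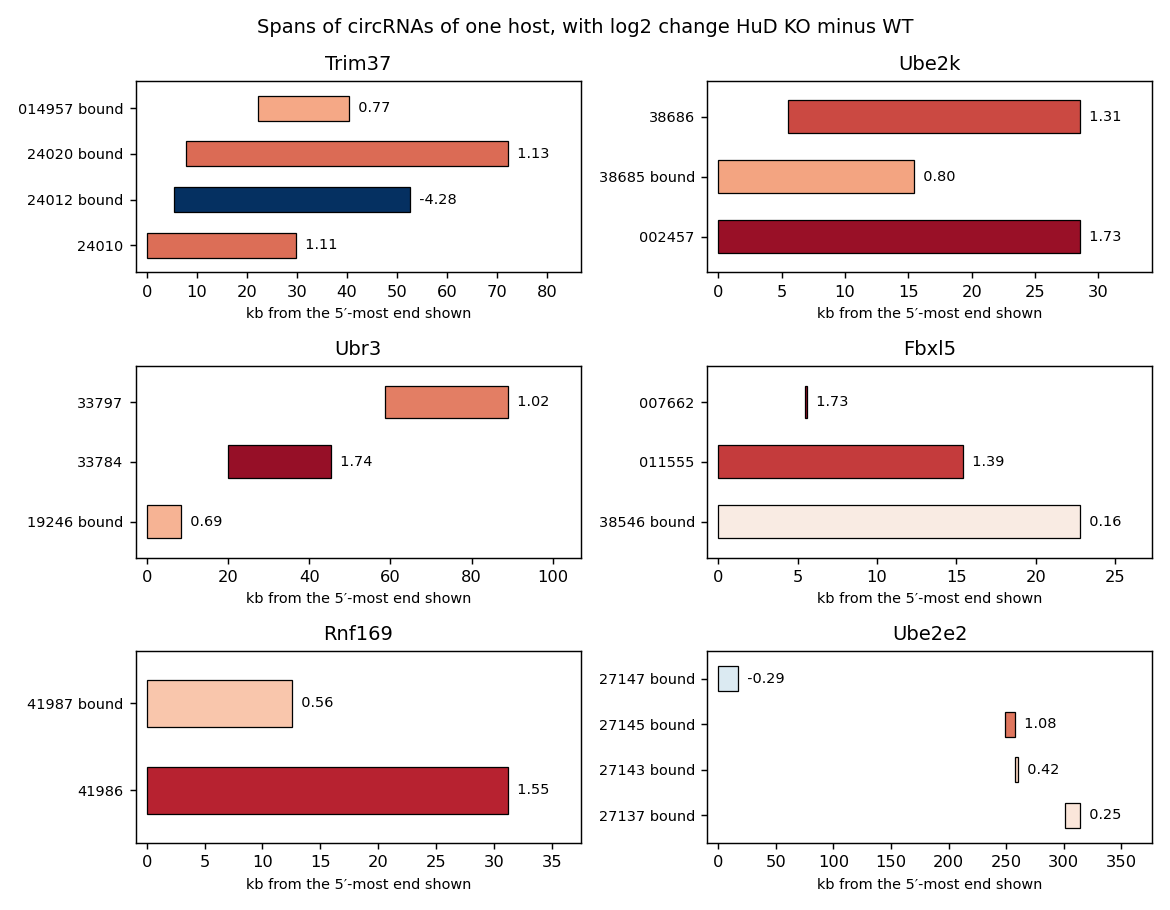
Spans of circRNAs of 6 hosts along the gene, in kb from the 5′-most end shown, with the log2 change (HuD KO minus WT) beside each bar and in its colour (red above 0, blue below 0, with the colour scale ending at 2 in either direction). The dark blue bar of Trim37, with a change of -4.28, overlaps the bars of 3 circRNAs with changes of 0.77 to 1.13.

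Span and class were not used to choose the circRNAs. The median span between the back-spliced ends was 21.6 kb for the 51 in the higher table and 6.14 kb for the 39 in the lower table. The whole tables showed medians of 17.5 kb and 8.04 kb, so the same order held without regard to the host. Exonic rings made up 46 of the 51 (90.2%) and 31 of the 39 (79.5%), beside 83.2% and 66.0% in the whole tables. The median rank of the WT signal among all probes tested was percentile 34.9 for the higher and percentile 77.2 for the lower table, and percentiles 52.1 and 77.4 for the whole tables, where the rank is of probe signal and not of abundance, and the WT signal enters the fold change by which the tables were made. The higher-table circRNAs had a median change of 1.23 (0.91 to 2.60) and the lower-table ones of -1.92 (-4.95 to -0.86), beside medians of 1.33 and -1.99 over the whole tables. At the threshold of the tables, the smallest changes inside were 0.91 (Rnf19a) and -0.86 (Rnf157), and the farthest outside were 1.08 (mmu_circRNA_27145 of Ube2e2) and -0.52 (Ube2j1), on a scale other than the one by which the tables were made. Of the miRNAs that the tables name as predicted binders, mmu-miR-7092-3p was named for 11 of the 90 table circRNAs (12.2%) and for 10.9% of all in the tables, and mmu-miR-1903 for 9 (10%) and 8.44%. Among rarer ones, mmu-miR-670-3p was named for 4 (4.44%, and 1.37% of all in the tables) and mmu-miR-7214-5p also for 4 (4.44% and 2.09%). Of 340 such miRNAs, 269 were named for a single circRNA of the set.

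Of a wider list of 194 gene symbols, such as anaphase-promoting complex subunits, Arih ligases and DCAF receptors, 49 had a named circRNA. This list also holds SUMO genes (Senp and Pias) and genes such as Ubn2 and Phf3, whose place in the pathway was not checked. Some genes are in it under an old and a new symbol. Their 67 circRNAs included 29 in the higher and 26 in the lower table, beside 45.8% and 54.2% over the whole tables. Of the 13 on the HuD-bound list, 9 rose and 3 fell (limma adjusted p under 0.05), and the median change of these 13 was 0.64, beside 26.1% higher and 37.2% lower of all probes and 42.7% and 14.1% of the HuD-bound circRNAs of hosts outside the set. Among the 9, mmu_circRNA_24249 of Cdc27 is also in the higher table, so its call is not independent of that choice. The direction of the weaker changes in the set depended on how arrays were scaled. The fall of mmu_circRNA_24012 of Trim37 lay between -5.07 and -3.77 over the 19 alternatives and was called in all of them. The changes of mmu_circRNA_24020 of Trim37 (0.34 to 1.65), mmu_circRNA_27145 of Ube2e2 (0.29 to 1.59) and mmu_circRNA_38685 of Ube2k (0.0206 to 1.32) stayed above 0 and lost their call in 1 alternative each, the scaling on control probes. The other 6 called rises turned below 0 under that scaling alone. The rises of mmu_circRNA_41987 of Rnf169, mmu_circRNA_31297 of Mib1 and mmu_circRNA_27143 of Ube2e2 lost their call in 11, 7 and 6 of the 19 alternatives, leaving out single arrays of either group among them. For Rnf169 the call was lost without HuD KO replicate 1 or 2 or any WT replicate (changes 0.45 to 0.58), for Mib1 without HuD KO replicate 2 or 3 or WT replicate 1 or 2 (0.56 to 0.68), and for mmu_circRNA_27143 without HuD KO replicate 2 or WT replicate 1 or 2 (0.39 to 0.43). The falls of Ube2j1 and Psmd7 lost their call in 5 and 12, the second also without HuD KO replicate 1 or 2 or WT replicate 1 or 3 (-0.52 to -0.36).

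**Figure D5:**
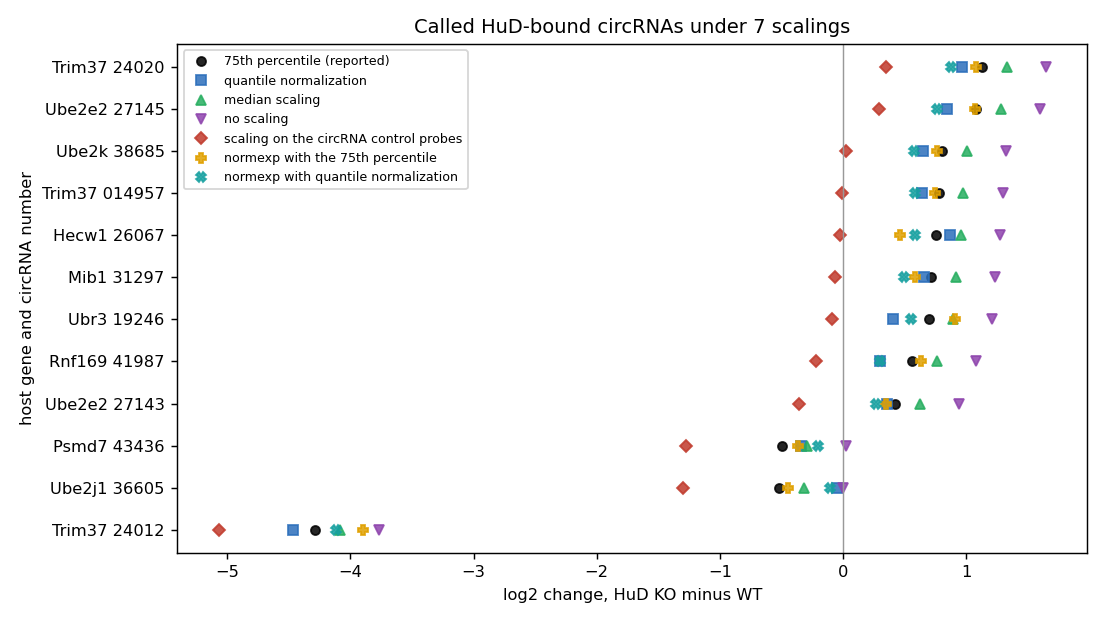
Log2 change (HuD KO minus WT) of the 12 called HuD-bound circRNAs under the reported scaling to the 75th percentile and 6 other scalings or background corrections, one symbol each. The scaling on control probes gives the lowest values and no scaling the highest for most of them, and mmu_circRNA_24012 of Trim37 stays far below 0 in each.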

How the data were processed

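Circular RNA of the striatum was measured on 1-colour Agilent arrays, 3 from HuD KO and 3 from WT mice. The deposited array files hold, per spot, an intensity that Agilent Feature Extraction 11.0.1.1 had corrected for background, not normalized between arrays. The authors also deposited tables of circRNAs higher and lower in HuD KO, with normalized log2 values per sample, selected by fold change (2) and p (0.05) on these arrays. Their columns of fold changes, p-values and FDR were not used. Host, class, position and junction sequence came from these tables or from the HuD-bound list, of which 658 circRNAs were used, without its values.

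The corrected intensity was taken as log2, minus the 75th percentile of the circRNA probes of the array, with flagged spots left out. A probe was kept if 1 group or both had it clearly over background on each of 3 arrays (13458), and tested if each group had at least 2 values (13431). The test was limma (3.58.1, lmFit and eBayes, in R 4.3.3) without covariates, with Benjamini-Hochberg adjustment over all of them and calls at an adjusted p under 0.05. The fit was tested on simulated data. Members of the deposited tables were described without a test, except those also on the HuD-bound list (of Trim37 and, in the wider list, of Cdc27). Differences between circRNAs of Trim37 and of Ube2e2 were tested by exact permutation of the arrays, two-sided. The number of arrays limits the precision. Alternatives were other scalings, normexp (offset 50, on the median signal, since the files used here hold no mean signal), other filters, flagged spots kept, the methods' t-test, the replicate number or scan as a block, each array left out, and the deposited log2 values.

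The circRNAs, gene lists and roles were chosen with earlier results of these data known. Any circRNA could be named, but some items are not reported here. Values per array were given for HuD-bound circRNAs that were called or had extreme changes, for hosts in both tables and for the largest changes of a role. No source ties replicate numbers to litters. Symbols were looked up in a GRCm38 gene table, where 83 of 83 were found. Sequences are as deposited.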

Additional observations from a re-analysis of the deposited data

How the results depend on the processing

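All 90 circRNAs of the deposited tables kept their sign in the 19 alternatives, which the choice of circRNAs by fold change favours. The direction of small changes followed the scaling. With the arrays scaled on the circRNA control probes, 605 probes were higher and 8472 lower over all, against 5339 and 2553 without scaling, and of the 25 HuD-bound circRNAs 0 were higher and 14 lower. That scaling turned the median of the 25 to -0.62, and the changes of mmu_circRNA_26067 (Hecw1) to -0.028, mmu_circRNA_31297 (Mib1) to -0.0698, mmu_circRNA_41987 (Rnf169) to -0.22, mmu_circRNA_014957 (Trim37) to -0.00904, mmu_circRNA_27143 (Ube2e2) to -0.36 and mmu_circRNA_19246 (Ubr3) to -0.091. Without scaling, mmu_circRNA_43436 (Psmd7) turned to 0.023 and the median of the 25 was 0.68, against 0.36 with median scaling. Lower calls among the 25 numbered 1 after quantile normalization, median scaling, no scaling or scan as a random block, which gave 7 calls in all, and 6 with normexp and the 75th percentile. The median of the 25 minus that of all probes, 0.27, was 0.056 after quantile normalization and 0.039 with normexp and quantile normalization. The higher-table median was 1.51 after quantile normalization, 1.43 with median scaling, 1.75 without scaling, 0.45 on control probes, 0.70 with normexp and 0.86 with normexp and quantile normalization. The lower-table median was -1.72 with median scaling, -1.40 without scaling, -2.70 on control probes, -1.22 with normexp, -1.10 with normexp and quantile normalization, -1.51 in the deposited log2 values, and -2.11 to -1.91 with single arrays left out, the lowest without HuD KO replicate 3. The cause was not tested.

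With single arrays left out, 6 to 9 of the 25 were higher and 2 to 4 lower. With 6 higher, the array left out was HuD KO replicate 2, WT replicate 1 or WT replicate 2, and with 2 lower it was HuD KO replicate 1, WT replicate 1 or WT replicate 3. With the replicate number as a block, 10 of the 25 were called, 7 higher and 3 lower, and 7976 over all probes. Arrays with the same number did not deviate together (correlations -0.0094, -0.029 and -0.078), but this cannot show whether the number pairs mice of a litter. Dim probes limit the falls of Cul2, Fbxl13, Fbxw24, Kbtbd2 and Trim12a. The size of other falls, such as those of Psmf1, Uspl1 and Rnf122, also varied widely over the alternatives.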
